A study of Mus musculus with 4 samples.

Results

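The genes described are 10 genes of major histocompatibility complex (MHC) class I antigen presentation: H2-K1, H2-D1, B2m, Tap1, Tap2, Tapbp, Psmb8, Psmb9, Psmb10 and Nlrc5. They were taken by gene name from the deposited table, in which each name matched 1 of 54078 features, and all 10 passed the filter of a mean FPKM (fragments per kilobase of gene, scaled to a total for each library) of at least 0.5. RNA-sequencing had been carried out on kidneys whose vessels on both sides were clamped for 30 min and which were taken at day 3 of reperfusion (bI/R 3D), with 2 libraries from WT mice (WT1 and WT2) and 2 from Apela Ksp KO mice (KO1 and KO2). Each library was a pool of RNA from 3 adult male mice. KO mice carried Apela flox/flox alleles and Cre under the Ksp-cadherin promoter, which is active in renal tubular epithelium, so cells outside the tubule keep the gene. WT mice were littermates with Apela flox/flox and no Cre, so neither an uninjured kidney nor a kidney with Cre alone was among the libraries. The labels give the strain as C57BL/6 x 129S4/SvJae and the study's methods as C57BL/6. The series text names adipose tissue while the labels and methods name kidney, and Umod, a thick ascending limb gene, was at an FPKM of 788 to 1133 in the 4 libraries.

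MHC class I molecules hold short peptides from proteins made inside the cell and show them at the surface to CD8+ T cells and natural killer (NK) cells. Peptides are cut by the proteasome, pumped into the endoplasmic reticulum by the TAP transporter and loaded onto a heavy chain that is paired with beta-2-microglobulin. Nearly all nucleated cells carry the pathway, and interferons raise it through factors such as IRF1 and NLRC5, also in renal tubular epithelium. Apela encodes ELA, a peptide ligand of the receptor APJ.

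Apela had an FPKM of 5.27 in WT1, 4.57 in WT2, 0.536 in KO1 and 0.245 in KO2, so both pools labelled KO had the lower values. Library depth lay between 16045724 and 16927742 reads assigned to a gene. The totals to which the FPKM were scaled were 0.987, 1.07, 0.988 and 0.968 times those reads in WT1, WT2, KO1 and KO2. WT2 stood apart in markers of leukocytes in general and of macrophages. The summed FPKM of 5 leukocyte markers was 32.3 in WT1, 69.3 in WT2, 32.2 in KO1 and 34.4 in KO2. The differences of the 10 genes are therefore given first over all 4 pools and then also without WT2.

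All 10 genes had lower values in both KO pools than in both WT pools, and none passed the adjusted threshold. The WT mean was between 1.37 times (H2-D1) and 2.16 times (Psmb9) the KO mean, and the log2 differences between KO and WT had a median of -0.78, against 0.01 over the 15414 genes tested. Both KO pools were below both WT pools for 18.1% of all genes tested. The limma test with Benjamini-Hochberg adjustment called 0 of the 10 members at an adjusted p under 0.05, and 0 of all genes (0%). At an unadjusted p under 0.05, 6 of the 10 members were lower in KO, against 467 of all genes (3.03%). Over all genes and both directions, 974 had an unadjusted p under 0.05 by limma and 970 with voom weights, which also gave 0 adjusted calls. The smallest adjusted p of any gene by limma was 0.466, that of Apela, so the test did not call the deleted gene either. RNA of a whole kidney was measured, so fewer cells of a type and less RNA per cell cannot be told apart.

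**Figure D1:**
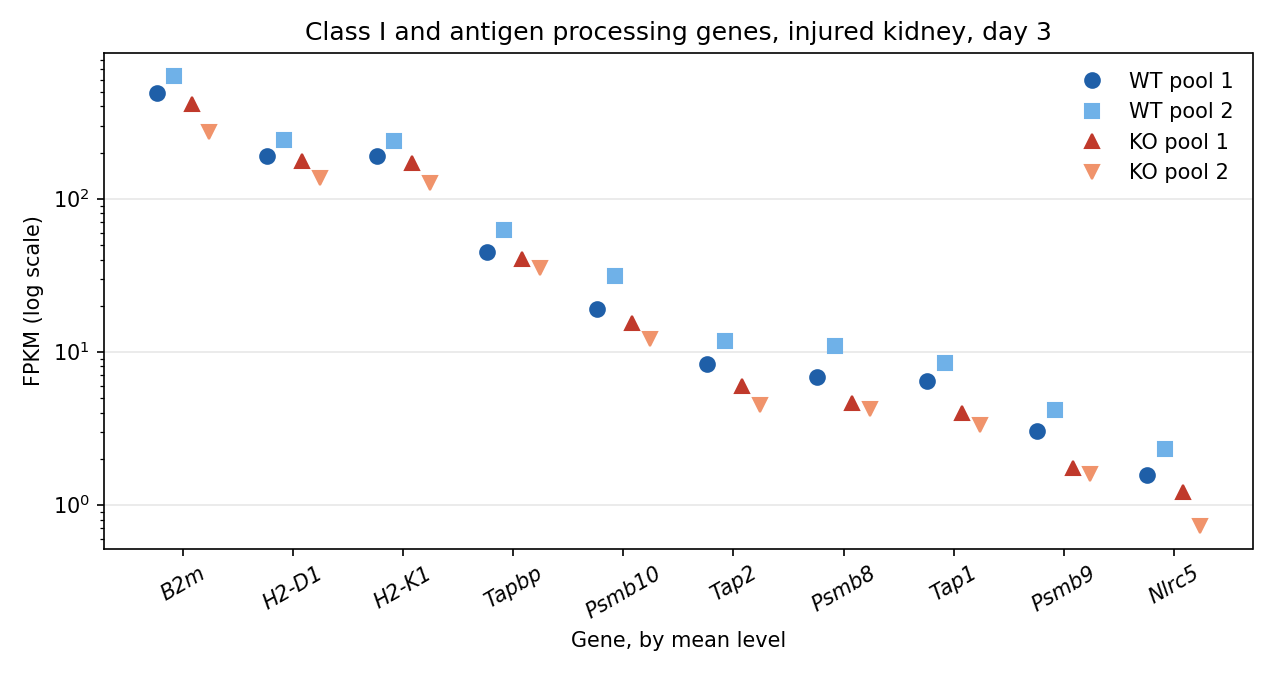
FPKM of the 10 genes in each of the 4 pools of 3 mice, on a log scale, with genes ordered by their mean over the pools and a marker for each pool. For every gene the 2 KO pools lie below the 2 WT pools, from B2m at 272 to 637 down to Nlrc5 at 0.725 to 2.32.

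The promoters of the 3 genes of the class I molecule itself are shown because they hold, in the same stretch, the elements through which NF-kB, interferon regulatory factors and the NLRC5 complex are known to act. Each run is 300 bases of the RefSeq annotation of GRCm38.p6, from 250 bases before the annotated start to 50 after it, 5′ to 3′ on the gene's strand. Capitals mark an NF-kB decamer, the IRF core AANNGAAA on either strand, and TGACG followed by ATTGG, which are the cores of the X2 and Y boxes of the SXY module. The windows are chr17:34000284-34000583 on the minus strand for H2-K1, chr17:35262844-35263143 on the plus strand for H2-D1 and chr2:122147437-122147736 on the plus strand for B2m.
H2-K1: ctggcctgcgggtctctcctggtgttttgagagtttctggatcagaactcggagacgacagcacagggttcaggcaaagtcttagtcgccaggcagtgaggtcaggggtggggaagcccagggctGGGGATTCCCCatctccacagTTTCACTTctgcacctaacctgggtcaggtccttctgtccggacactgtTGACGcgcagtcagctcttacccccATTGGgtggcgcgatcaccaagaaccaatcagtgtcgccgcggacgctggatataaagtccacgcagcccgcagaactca
H2-D1: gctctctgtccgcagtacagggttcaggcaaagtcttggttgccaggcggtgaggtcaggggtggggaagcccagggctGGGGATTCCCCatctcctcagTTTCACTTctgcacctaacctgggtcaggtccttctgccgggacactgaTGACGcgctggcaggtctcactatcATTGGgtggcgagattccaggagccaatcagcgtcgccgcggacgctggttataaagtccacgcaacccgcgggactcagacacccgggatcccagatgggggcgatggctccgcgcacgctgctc
B2m: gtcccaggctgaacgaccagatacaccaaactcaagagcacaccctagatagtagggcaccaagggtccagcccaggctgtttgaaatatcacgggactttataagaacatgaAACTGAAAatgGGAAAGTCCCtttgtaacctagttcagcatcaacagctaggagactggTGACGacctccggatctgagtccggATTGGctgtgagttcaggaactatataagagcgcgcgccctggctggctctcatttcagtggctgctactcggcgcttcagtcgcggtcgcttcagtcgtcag
H2-K1 and H2-D1 shared the same NF-kB and IRF letters, GGGGATTCCCC and TTTCACTT, while B2m had GGAAAGTCCC and AACTGAAA in the opposite order. TGACG and ATTGG were 20 bases apart in each of the 3 windows, and that pair at a spacing of 10 to 30 bases, on either strand, occurred in 0.743% of 32851 windows of the same length. The IRF core occurred in 23.9% and the NF-kB decamer in 8.46% of those windows. Of the 8 members with a window, only these 3 held any of these 3 elements, and Psmb8 held the interferon-gamma activated site TTCNNNGAA, found in 8.3% of windows. These letters describe the windows and not binding, and Tap2 and Nlrc5 had no window.

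Tap1 and Psmb9 are transcribed away from a common stretch, and their windows overlapped by 275 of 300 bases, with start sites 226 bases apart. The Tap1 window, chr17:34187306-34187605 on the plus strand, is shown because these 2 genes had the widest gap between WT and KO pools. Capitals mark the only GC box of this window, GGGCGG on the other strand, a motif found in 35.7% of windows.
Tap1: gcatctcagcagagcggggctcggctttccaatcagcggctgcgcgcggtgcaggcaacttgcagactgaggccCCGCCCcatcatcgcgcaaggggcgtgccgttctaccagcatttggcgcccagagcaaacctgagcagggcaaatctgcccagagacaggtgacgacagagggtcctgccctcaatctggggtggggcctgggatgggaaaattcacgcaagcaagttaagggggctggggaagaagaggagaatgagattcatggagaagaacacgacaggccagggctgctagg

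Heavy chains and beta-2-microglobulin form the molecule that is shown at the surface. H2-K1 (ENSMUSG00000061232, chr17:33996017-34000333, minus strand), the K heavy chain, had an FPKM of 190.6 in WT1, 238.8 in WT2, 172 in KO1 and 126.1 in KO2. The lower WT pool was close to the higher KO pool, and the log2 difference was -0.53 ± 0.23 (SE, n = 2 pools per group, limma adjusted p = 0.797). H2-D1 (ENSMUSG00000073411, chr17:35262730-35267499, plus strand), the D heavy chain, was at 188.9 and 240.2 in WT and at 177.2 and 136.4 in KO, with a log2 difference of -0.45 ± 0.22 (adjusted p = 0.797). The 2 heavy chains kept nearly the same ratio, with H2-K1 at 1.01, 0.994, 0.97 and 0.924 times H2-D1 in WT1, WT2, KO1 and KO2. Of the 100-base windows of the longest H2-D1 transcript, 4.64% also occurred in transcripts of other genes, mostly H2-Q1, while no window of H2-K1 did, so a small part of the H2-D1 reads could belong to other class I genes. B2m (ENSMUSG00000060802, chr2:122147686-122153083, plus strand), the light chain of every class I molecule, was the most abundant of the 10 genes, at 492.1 in WT1, 637.2 in WT2, 416.2 in KO1 and 271.9 in KO2. KO2 was the lowest pool, and the log2 difference was -0.73 ± 0.29 (adjusted p = 0.787). Patl2, annotated across B2m on the other strand, was at an FPKM of 0.0491 in KO1 and had no reads in the other pools.

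Of the peptide loading genes, both transporter subunits differed more between the groups than tapasin did, a contrast that was not tested. Tap1 (ENSMUSG00000037321, chr17:34187553-34197225, plus strand), which encodes a subunit of the peptide transporter, was at 6.42 in WT1, 8.49 in WT2, 4 in KO1 and 3.34 in KO2. The WT and KO pools were further apart than the pools within either group, and the log2 difference was -0.92 ± 0.18 (adjusted p = 0.657). Tap2 (ENSMUSG00000024339, chr17:34203527-34216321, plus strand), the other transporter subunit, was at 8.31 and 11.71 in WT and at 5.93 and 4.5 in KO, with a log2 difference of -0.87 ± 0.22 (adjusted p = 0.757). The ratio of Tap2 to Tap1 lay between 1.29 and 1.48 in the 4 pools. Tapbp (ENSMUSG00000024308, chr17:33915899-33929288, plus strand), which encodes tapasin and bridges the transporter and the empty heavy chain, was at 44.51 and 62.64 in WT and at 40.21 and 35.44 in KO. Its log2 difference was -0.48 ± 0.20 (adjusted p = 0.788). Zbtb22 overlaps Tapbp by 3421 bases on the same strand and lay between 11.37 and 12.61 in all 4 pools, with the KO values around the WT values.

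The immunoproteasome subunits replace catalytic subunits of the standard proteasome when cells are exposed to interferon and change which peptides are cut. Psmb8 (ENSMUSG00000024338, chr17:34197721-34201454, plus strand) was at 6.82 in WT1, 10.96 in WT2, 4.61 in KO1 and 4.21 in KO2, a log2 difference of -0.90 ± 0.24 (adjusted p = 0.760). The KO pools were close together and the WT pools 1.61 times apart. Psmb9 (ENSMUSG00000096727, chr17:34181988-34187764, minus strand) was at 3.03 and 4.13 in WT and at 1.73 and 1.58 in KO, from 178, 260, 106 and 94 reads, with a log2 difference of -0.91 ± 0.19 (adjusted p = 0.661). Psmb9 and Tap1 overlap by 212 bases on opposite strands, and the library preparation as described does not mark strand, so reads there cannot be assigned to either gene. Psmb10 (ENSMUSG00000031897, chr8:105935735-105938444, minus strand) was at 19.05 and 31.16 in WT and at 15.43 and 12.06 in KO, with a log2 difference of -0.81 ± 0.27 (adjusted p = 0.785). WT2 was 1.64 times WT1, the widest ratio between WT pools among the 10 genes.

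The constitutive subunits that these 3 genes replace had the other direction. Psmb5 was at 141.2 in WT1, 120.9 in WT2, 148.5 in KO1 and 145.5 in KO2, Psmb6 lay between 51.67 and 59.94 and Psmb7 between 18.13 and 21.39. In all 3 the KO pools were above the WT pools, as in 19.7% of all genes tested, with log2 differences of 0.17, 0.17 and 0.13 and adjusted p of at least 0.824. The FPKM ratio of Psmb8 to Psmb5 was 0.0483 in WT1, 0.0907 in WT2, 0.031 in KO1 and 0.0289 in KO2. For Psmb9 over Psmb6 it was 0.0553, 0.0799, 0.0289 and 0.0266 in the same order. For Psmb10 over Psmb7 it was 0.977, 1.72, 0.778 and 0.564, so Psmb10 was the only inducible subunit near the level of its counterpart. The log2 ratio, with 0.5 added to each FPKM, differed between KO and WT by -1.07 ± 0.44 (SE), -1.07 ± 0.24 and -0.94 ± 0.46 for the 3 pairs. Each had a two-sided exact permutation p of 0.333, the smallest that 2 pools against 2 allow, and 3 ratios were compared. Without WT2 the differences of the log2 ratios were -0.64, -0.84 and -0.54.

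**Figure D2:**
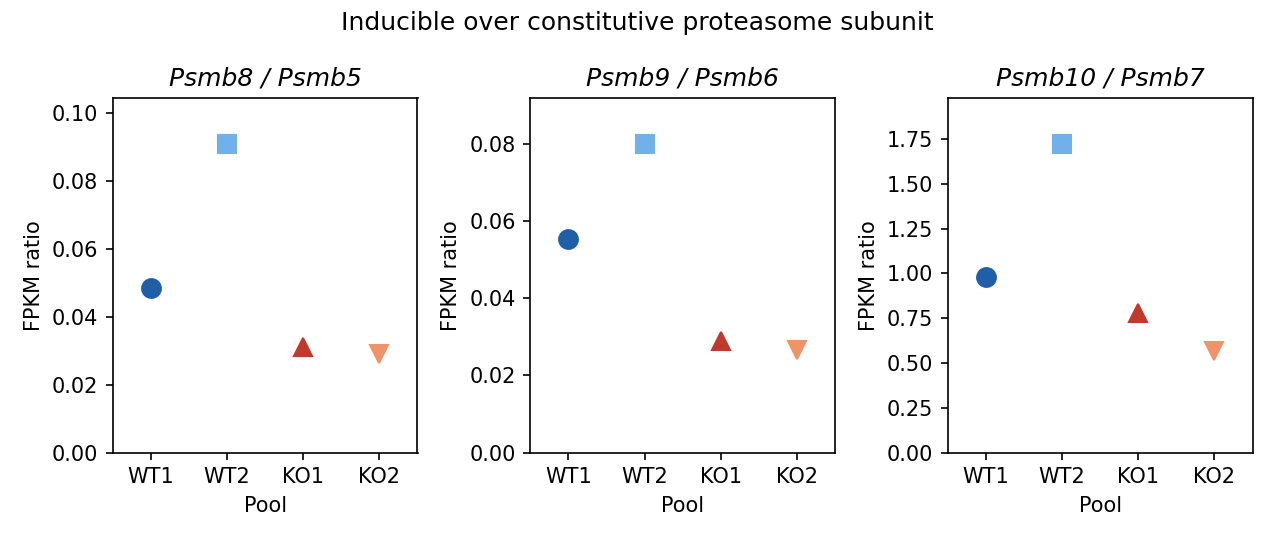
FPKM ratio of each inducible proteasome subunit to the constitutive subunit it replaces, 1 panel per pair and 1 marker per pool of 3 mice, with axes from 0. In each panel both KO pools lie below both WT pools, and WT2 is the highest pool.

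Nlrc5 (ENSMUSG00000074151, chr8:94434356-94527272, plus strand), the transactivator that acts through the SXY module of class I promoters, was the least abundant member. It was at 1.56 in WT1, 2.32 in WT2, 1.21 in KO1 and 0.725 in KO2, from 213, 339, 172 and 100 reads. The log2 difference was -0.74 ± 0.27 (adjusted p = 0.785). KO1 was nearer to WT1 than to KO2.

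The 10 genes ranked the pools in the same order. WT2 was above WT1, WT1 above KO1 and KO1 above KO2 in 10 of 10 genes, an order that 5.97% of all genes tested had. This order was noticed after the values had been seen. By level, the mean FPKM over the 4 pools was 454.3 for B2m, 185.7 for H2-D1, 181.9 for H2-K1, 45.7 for Tapbp, 19.43 for Psmb10, 7.61 for Tap2, 6.65 for Psmb8, 5.56 for Tap1, 2.62 for Psmb9 and 1.45 for Nlrc5. Each gene was above the next in all 4 pools, except that H2-D1 was above H2-K1 in 3 of 4. The ranges over pools of H2-D1 and H2-K1 overlapped, as did those of each pair of neighbours from Tap2 to Nlrc5. Only Tap1 and Psmb9 had a gap between groups on the log2 scale that exceeded the gaps within both groups, 2 of 10 members against 5.27% of all genes tested.

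Leaving out a pool kept all 10 genes lower in KO and moved their size. Without WT2, the pool rich in leukocyte markers, the median log2 difference was -0.53. It was -0.37 for H2-K1, -0.28 for H2-D1, -0.55 for B2m, -0.74 for Tap1, -0.64 for Tap2 and -0.23 for Tapbp. For the immunoproteasome subunits it was -0.58 (Psmb8), -0.71 (Psmb9) and -0.47 (Psmb10), and for Nlrc5 -0.51. Tap1, Psmb8 and Psmb9 were then at an unadjusted p under 0.05, 3 of 10 against 2.18% of all genes. Without KO2 the median was -0.57 and Tap1 and Psmb9 remained at that p, 2 of 10 against 2.52%. The heavy and light chains then moved to -0.31 for H2-K1, -0.26 for H2-D1 and -0.43 for B2m, while Nlrc5 was at -0.49, Tapbp at -0.39, Tap2 at -0.69, Psmb10 at -0.64, Psmb8 at -0.84, Tap1 at -0.81 and Psmb9 at -0.86. Without WT1 the median was -1.03, Tapbp moved to -0.72 and 7 of 10 were at that p, against 4.94%, and without KO1 the median was -0.97 with 4 of 10, against 2.59%. The KO pools that were left were below the WT pools that were left for all 10 genes in each case, as they were for 32% to 35.9% of all genes.

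**Figure D3:**
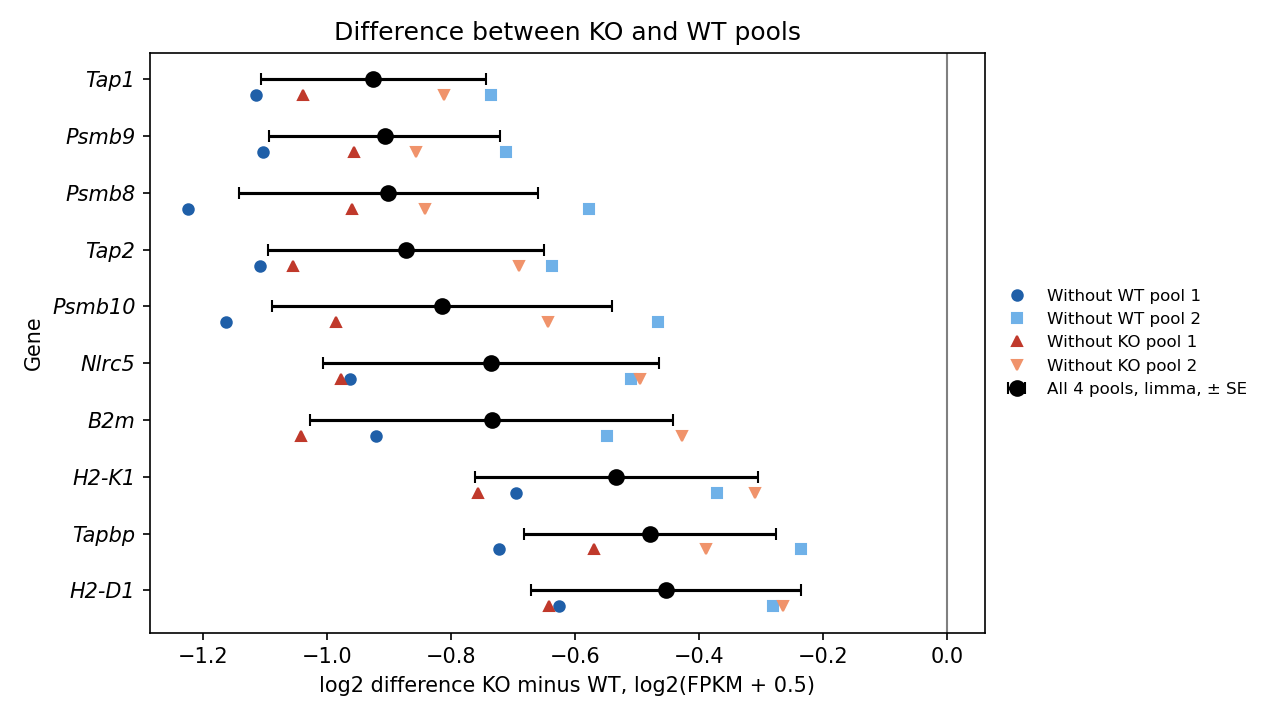
Log2 difference between KO and WT for each of the 10 genes, as the limma estimate over 4 pools with its SE (black) and, under it, the estimates with each pool left out (coloured). All values lie below 0, those without WT2 or without KO2 lie nearest to 0, and Tap1 and Psmb9 stay at -0.71 or lower in all of them.

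Markers of immune cells moved with these genes only in part. The summed FPKM of the 10 members, mostly from B2m, H2-K1 and H2-D1, was 961.3 in WT1, 1248 in WT2, 838.5 in KO1 and 596.2 in KO2. That of 10 macrophage markers was 187.6, 465.5, 229.3 and 219.9, so WT1 was below both KO pools there and above both KO pools in the class I genes. That order rests on Lyz2, and without it the macrophage sums were 130.1, 301.1, 140.1 and 115.9, with WT1 between KO1 and KO2. Of the 5 leukocyte markers 2 had both KO pools below both WT pools, and of the 10 macrophage markers 3 had, against 18.1% of all genes, with medians of the log2 difference of -0.48 and -0.65. The 9 T cell markers summed to 1.6, 2.48, 0.653 and 0.915, from 78, 130, 36 and 48 reads, so that WT1 and WT2 were both above the KO pools as in the class I genes. Among them Cd3e, which defines T cells, had 3 reads in WT2 and 0 in the other pools, Cd3g had 0 reads in both KO pools, and 1 of the 9 passed the filter. The 7 NK cell markers summed to 1.25, 2.05, 0.77 and 0.66, from 28, 57, 30 and 22 reads, so KO1 had more of these reads than WT1. Markers of dendritic cells summed to 3.06, 4.23, 3.28 and 2.36, of B cells to 1.04, 1.49, 0.892 and 0.708 and of neutrophils to 9.91, 21.5, 11.2 and 22.7. The share of these cell types in the differences of the class I genes was not tested.

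Markers of resident kidney cells also varied between the pools, and none passed the adjusted threshold of the limma test. The 9 endothelial markers, of cells that carry abundant class I, summed to 171.8 in WT1, 197 in WT2, 242.9 in KO1 and 252 in KO2, with 5 of 9 above in both KO pools (19.7% of all genes tested) and 0 of 9 below (18.1%). The 7 proximal tubule markers summed to 1711, 1274, 959.7 and 1465, with 4 of 7 below in both KO pools and 1 of 7 above, against the same 18.1% and 19.7%. For 6 markers of other nephron segments and podocytes the sums were 1554, 1087, 1633 and 1275. Mitochondrial genes held 5.2% to 6.45% of the reads. The part of these differences in the class I values was not tested either.

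**Figure D4:**
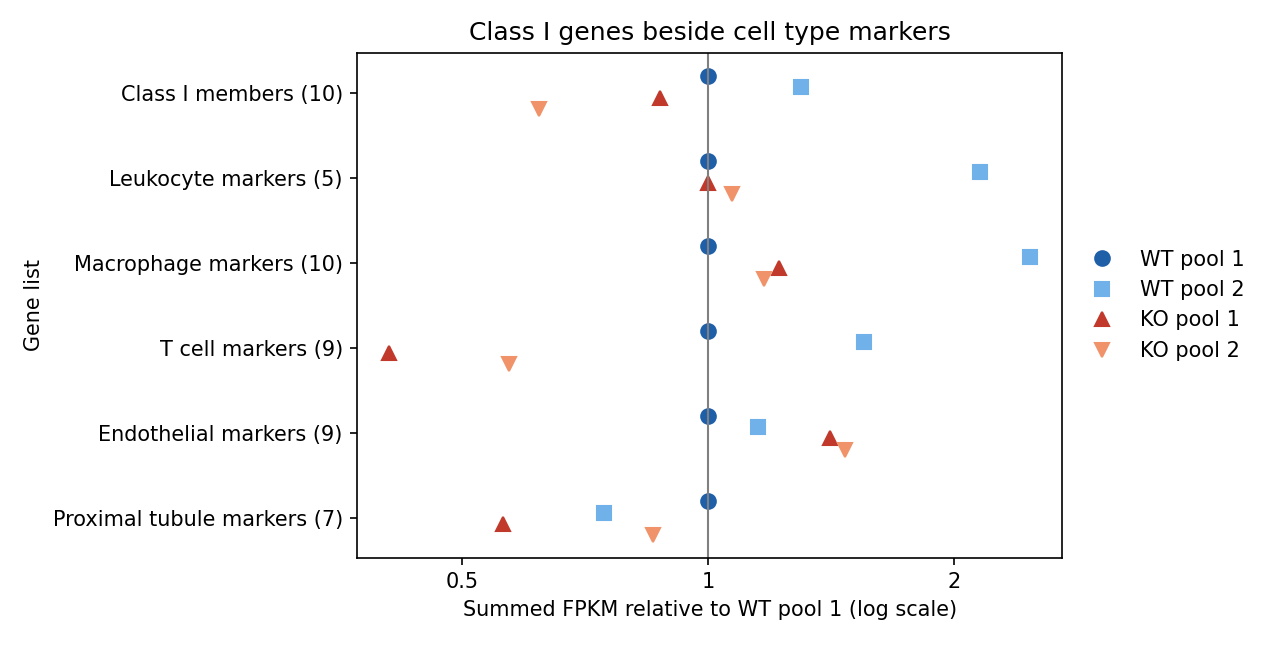
Summed FPKM of the 10 class I members and of 5 marker lists in each pool of 3 mice, relative to WT1, on a log scale. Leukocyte and macrophage sums set WT2 apart from the other 3 pools, at 2.15 and 2.48 times WT1. The class I sum, most of which comes from B2m, H2-K1 and H2-D1, places KO1 and KO2 at 0.872 and 0.62 times WT1.

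The other genes of the pathway and its regulation were read from lists ordered by role. Of 65 genes listed, 61 were in the table and 46 were tested. None passed the adjusted threshold of the limma test. At an unadjusted p under 0.05, 9 of 46 were lower in KO, against 3.03% of all genes, and 0 were higher. Both KO pools were below both WT pools in 20 of 46, against 18.1% of all genes, and above in 8 of 46, against 19.7%. Their median log2 difference was -0.16, which is nearer to 0 than that of any of the 10 members.

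Other class I chains, most of which lie in the same complex, had a median of -0.48 over 10 tested, with 5 below in both KO pools and 1 above, against 18.1% and 19.7% of all genes. H2-T23, which encodes Qa-1, was at 32.97 and 39.86 in WT and at 24.58 and 23.81 in KO, with a log2 difference of -0.57 ± 0.14 (adjusted p = 0.732). H2-T22 was at 20.32 and 23.1 in WT and at 19.02 and 17.59 in KO, and H2-Q6, with overlapping groups, at 15.79 and 25.15 against 12.9 and 16.22. H2-T23 and H2-Q4 were the 2 at an unadjusted p under 0.05, and H2-Q4 was picked out after its values were seen. Class I chains resemble each other in sequence, so reads can be split among them. The partners of B2m that are encoded outside the complex had values in the other direction, with 0 of 4 tested below and 3 above, against 18.1% and 19.7% of all genes, and a median of 0.27. Fcgrt, the neonatal Fc receptor, was at 118.8, 98.31, 109.2 and 131.1 in WT1, WT2, KO1 and KO2. Hfe, a regulator of iron uptake, was at 10.75, 8.63, 12.55 and 11.97, and Cd1d1, which presents lipids, at 1.55, 1.65, 4.98 and 2.01.

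General chaperones and trimming enzymes of the loading step had 5 of 5 below in both KO pools, against 18.1% of all genes, with a median of -0.29. Calr was at 252.8 and 249.5 in WT and at 216.5 and 193.4 in KO, Pdia3 at 160.4 and 171.7 against 152.3 and 132.4, and Canx at 89.43 and 92.35 against 84.33 and 81.29. The 2 at an unadjusted p under 0.05 were Tapbpl, a second peptide editor, and Erap1, which trims peptides, with log2 differences of -0.46 ± 0.16 and -0.51 ± 0.17 (adjusted p = 0.785 for both), and they were picked out after their values were seen. Of 4 proteasome activator and assembly genes, 2 were below in both KO pools and 1 above, against 18.1% and 19.7% of all genes. Their median log2 difference was -0.10. Psme1 and Psme2, which interferon induces, had log2 differences of -0.24 and -0.45. Psme3, which interferon does not induce, had 0.03, and Pomp, named after its values were seen, had 0.08.

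**Figure D5:**
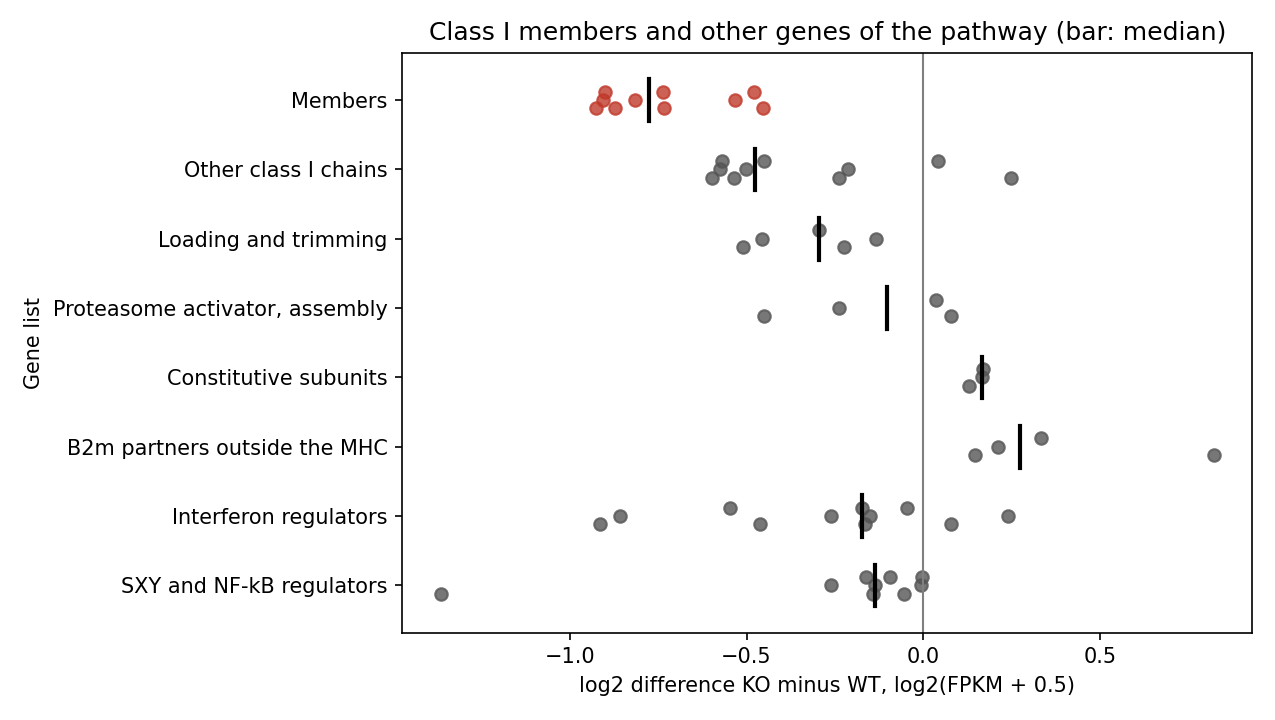
Log2 difference between KO and WT for each tested gene, by list, with a bar at the median of the list (members in red, other lists in grey). The 10 members lie between -0.92 and -0.45, other class I chains have a median of -0.48, and constitutive subunits and B2m partners outside the complex lie above 0.

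The regulators of class I genes were listed as interferon factors and as factors of the SXY module and NF-kB, and the lists had medians of -0.17 and -0.14. Irf1, an interferon-induced transcription factor, was at 8.95 in WT1, 13.41 in WT2, 6.35 in KO1 and 4.9 in KO2, with a log2 difference of -0.92 ± 0.24 (adjusted p = 0.757). Stat2 was at 6.79 and 8.88 against 5.91 and 4.5, and Irf9 at 7.14 and 8.15 against 6.34 and 4.59. Of the 11 interferon regulators tested, 6 had both KO pools below both WT pools, against 18.1% of all genes. Jak1 was at 27.9 and 32.41 in WT and at 26.51 and 26.76 in KO. Irf2 was at 3.045 and 2.979 against 2.942 and 2.348, so both genes had both KO pools below both WT pools. The receptor and kinase genes Ifngr1, Ifngr2 and Jak2 and the regulators Irf8 and Socs1 had overlapping groups. Ifng itself had 1 read in WT1 and 0 in the other pools, under the limit of detection of 3 reads.

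Ciita, the class II counterpart of Nlrc5, had the largest difference of the regulators, at 1.24 in WT1, 1.94 in WT2, 0.345 in KO1 and 0.258 in KO2 (log2 difference -1.36 ± 0.26, adjusted p = 0.650). The RFX subunits that Nlrc5 and Ciita both join did not separate the groups. Rfx5 was at 3.55, 3.91, 4.36 and 2.72 in WT1, WT2, KO1 and KO2, Rfxap between 6.77 and 7.24 and Rfxank between 2.64 and 3.12. Nfkb1 lay between 5.09 and 8.04 and Rela between 25.31 and 38.01, again with overlapping groups. The groups also overlapped for Nfyb, between 3.161 and 3.366, and for Nfyc, between 15.61 and 19.9. Creb1 was at 2.726 and 3.147 in WT and at 2.636 and 2.599 in KO, with both KO pools below both WT pools. The genes of CD8+ T cells, which read class I, had few reads. Cd8a had 19, 20, 1 and 8 reads and Cd8b1 5, 5, 0 and 0 in WT1, WT2, KO1 and KO2.

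Of the 10 genes, 7 lie within 1.35 Mb of chromosome 17, from 33915899 to 35267499, while B2m is on chromosome 2 and Psmb10 and Nlrc5 are on chromosome 8. Of the 65 other genes tested in that stretch without an H2 symbol, 18 (27.7%) had both KO pools below both WT pools, against 18.1% of all genes tested, and 12 had both above, against 19.7%. Their median log2 difference was -0.04. The 7 other H2 genes there had 6 below, against the same 18.1%, and a median of -2.10, and these 6 encode class II chains or their loading factors. The 3 members outside chromosome 17 had differences of -0.73 (B2m), -0.81 (Psmb10) and -0.74 (Nlrc5), within the range of the 7 on it.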

How the data were processed

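Poly-A RNA of 4 kidney pools, 2 WT and 2 KO, was sequenced. Reads had been mapped with HISAT2 2.0.5 to mm10 (GRCm38.p6), per the submitters' processing notes, and the counting tool is not given in the sources used here. The authors deposited FPKM per gene with gene positions and lengths. In each library, the product of FPKM, gene length and a total for the library was a whole number of reads, to within 0.01 of a read, for 100% of nonzero values. That total was 16071739, 17203609, 16727839 and 16237848 in WT1, WT2, KO1 and KO2, which is 0.968 to 1.07 times the reads on genes, and how the authors set it is not given in the sources used here. These recovered reads gave the depths (16045724 to 16927742 per library) and were the input to voom. The voom weights were set from the trend of the spread between pools of a group with the level of the genes.

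The groups were tested two-sided by limma 3.58.1 (R 4.3.3; lmFit, then eBayes with trend) after a log2(FPKM + 0.5) transform, on which changes of weakly expressed genes come out too small. Genes whose mean FPKM was under 0.5 were left out, and p-values of the 15414 others were adjusted together by the Benjamini-Hochberg method. Pools are the replicates, so p-values measure the spread between pools. The fit was tested on simulated data. Alternatives were other pseudocounts, filters and scalings, no trend, voom weights, protein-coding genes, the replicate number as a block and each pool left out. Ratios, lists and motifs were computed with Python 3.11.15, pandas 2.3.3 and scipy 1.17.1. Promoters came from RefSeq on GRCm38.p6, where the window nearest the deposited gene start was taken.

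The members and the lists, which hold 65 other pathway genes and markers of cell types, were chosen with earlier results of these data known. All members were named, with all tested genes of the constitutive and regulator lists and up to 3 of the most abundant genes of the other lists, except for a regulator that is not reported here by name. The pool order, the gap between groups and the motif counts were added after the data were seen.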

Additional observations from a re-analysis of the deposited data

How the results depend on the processing

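All 10 class I genes kept a log2 difference below 0 in the 13 alternatives, 130 values in all, and 0 members passed the adjusted threshold in any of them, with adjusted p between 0.298 and 0.992. Leaving out 1 pool at a time gave between 2 and 7 members at an unadjusted p under 0.05, against 6 with all pools, with the low counts without KO2 (2) and without WT2 (3). The replicate numbers did not pair the pools, with a correlation of the deviations of same-numbered pools of -0.001665 over 15414 genes. With the replicate number as a block, 0 members passed the adjusted threshold, 4 were at an unadjusted p under 0.05 and the median log2 difference was -0.78. Voom weights gave 8 members at an unadjusted p under 0.05, and no filter and a mean FPKM of at least 1 gave 5 each. Quantile normalization gave 6 and a median of -0.85, with the median of all genes at -0.0025 in place of 0.0071. With 2 pools per group a single value cannot reach an exact p under 0.333, and a lone pool left in a group was assumed to vary like the other group. Nlrc5 and Psmb9 rest on 94 to 339 reads per pool and the heavy chains on 5339 reads or more.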
